A study of Mus musculus with 32 samples.

Results

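The fragments described here are the near neighbours of 14 captured fragments (baits) at gene starts: every restriction fragment whose middle lay under 10 kb from the middle of its bait and that had a read in one or both of the deposited contact tables. They were chosen by that distance alone, from all rows of both tables, joined by the fragment numbers of the bait and of the other fragment. Each table listed 251 such pairs of bait and fragment. Joined, they made 264 pairs on 236 different fragments, of 30435 pairs in all, with 238 pairs in both tables and 13 in each table alone. The pair just inside the limit lay 9.86 kb from bait Ciita_2 and had 16 reads, and the next pair outside lay 10.04 kb from bait Nanog and had 42.

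The libraries came from small-intestinal organoids, epithelial cultures grown from the gut's stem cells, of C57BL/6JRj mice labelled as aged. Organoids had received interferon gamma (IFNγ), an inflammatory cytokine, at 500 pg/ml in their medium for 3 hours, or medium alone for as long. In Capture-C, chromatin is crosslinked and cut, here with the enzyme DpnII at GATC, ends that lie close together are ligated, and the ligation products of chosen baits are enriched and sequenced. The 32 sequencing samples were 8 libraries on 4 lanes each, and each condition had 4 libraries from the same 2 mice, one at passages 2 and 3 and the other at passages 4 and 5. No genotype other than the strain is given, and the tables hold contacts only, so the tissue could not be checked against marker genes.

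The 2 tables go by the words in their file names, control-named and IFNγ-named, because the sample descriptions attach each to the opposite treatment. Neither is assigned to a condition, and differences are IFNγ-named minus control-named, with a sign that turns under the opposite subtraction. Each table has 4 count columns, read here as libraries 1 to 4, which name no mouse or passage. As 2 mice supplied all libraries of a table, p-values computed over them may understate the error. Libraries held 23037 to 37290 reads, of which 1928 to 4154 fell under 10 kb, 20739 in all. The reads carry no molecular identifiers. Intervals are given for shares of fragments and cover the error of counting fragments only, as if each were independent.

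Chromatin near a promoter is met often by that promoter because the fibre between them is short, and contact callers therefore expect many ligations there and judge a contact against the expectation for its distance. The baits lay at 12 genes. Ciita encodes the coactivator that switches on MHC class II genes and is transcribed from alternative promoters, one of which is known to respond to IFNγ. Stat3 encodes a transcription factor of cytokine signalling, and Lifr a receptor subunit for leukaemia inhibitory factor, which signals through STAT3. The other baits lay at genes known from pluripotent stem cells: the transcription factors Nanog, Sox2, Esrrb, Klf2, Klf4, Sall4 and Tfcp2l1, the RNA-binding protein gene Dppa5a and the Polycomb subunit gene Phc1. Of the 14 baits, 12 held an annotated start site of their gene. The Sox2 bait lay just before the gene and the Tfcp2l1 bait in an intron, and in both cases the start site fell in the fragment next to the bait, which the tables do not list.

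The following fragments are printed because the results turn on whether a stretch between cut sites was read, and by which bait. Most were the most read fragments of their baits. The Ciita fragment read by Ciita_2 alone and the one without reads were chosen after their values were seen: the former had 223 reads from bait Ciita_2 and 0 from the other two Ciita baits, and the latter lay in the windows of all 3 Ciita baits and had 0 reads from each. Sequences are the plus strand of GRCm38 (mm10) from the NCBI reference genome, 5′ to 3′, and capitals mark the GATC at which DpnII cuts.
Most read fragment of bait Ciita_2, chr16:10480581-10480814: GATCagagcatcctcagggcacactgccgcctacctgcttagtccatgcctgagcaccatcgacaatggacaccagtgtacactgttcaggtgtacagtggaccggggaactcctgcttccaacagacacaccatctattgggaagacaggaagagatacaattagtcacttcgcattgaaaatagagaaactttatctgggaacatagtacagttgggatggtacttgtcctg
Ciita fragment read by bait Ciita_2 alone, chr16:10483638-10483886: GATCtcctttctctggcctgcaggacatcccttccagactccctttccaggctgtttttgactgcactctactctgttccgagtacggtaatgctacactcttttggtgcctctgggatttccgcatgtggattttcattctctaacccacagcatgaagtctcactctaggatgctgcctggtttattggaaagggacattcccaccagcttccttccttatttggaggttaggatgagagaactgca
Ciita fragment without reads, chr16:10485824-10486058: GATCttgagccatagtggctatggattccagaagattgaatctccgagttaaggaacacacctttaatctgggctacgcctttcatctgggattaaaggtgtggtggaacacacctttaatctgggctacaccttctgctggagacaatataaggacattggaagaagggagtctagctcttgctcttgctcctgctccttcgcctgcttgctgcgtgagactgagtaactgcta
Most read fragment of bait Stat3, chr11:100935433-100935698: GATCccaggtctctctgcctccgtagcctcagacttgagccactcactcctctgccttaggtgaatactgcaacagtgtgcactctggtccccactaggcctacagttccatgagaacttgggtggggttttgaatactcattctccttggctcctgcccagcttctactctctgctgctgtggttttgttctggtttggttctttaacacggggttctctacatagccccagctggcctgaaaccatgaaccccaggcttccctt
Most read fragment of bait Phc1, chr6:122335351-122335578: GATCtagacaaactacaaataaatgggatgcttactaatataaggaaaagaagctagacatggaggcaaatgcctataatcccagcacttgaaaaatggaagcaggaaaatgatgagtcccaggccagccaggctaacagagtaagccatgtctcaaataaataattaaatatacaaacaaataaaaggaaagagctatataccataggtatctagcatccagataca

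The 5 fragments were 234, 249, 235, 266 and 228 bases long, and none overlapped an annotated untranslated region. The one without reads was 100% soft-masked as repeat in the reference, against 0% of the leading Ciita_2 fragment and 53.5% of the leading Phc1 fragment, which had 121 reads. Each began with its only GATC, as digestion at every site would give. All 403 fragments listed within 20 kb of a bait matched such a digest of the reference in start, end, length and distance.

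The digest also gave the fragments without a row. The 14 windows of 10 kb on either side held 654 fragments, of which 14 were the baits. The tables listed 0 of the 28 fragments next to a bait and 0 of the other 136 fragments of 100 bp or shorter. Of the 476 that could be listed, 264 (55.5%, Wilson 95% interval 51.0 to 59.9) had reads and 212 had none in any of the 8 libraries. By bait, the share with reads ran from 40.6% at Tfcp2l1 (13 of 32) to 73.7% at Ciita_2 (28 of 38).

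Unread fragments were not only short, distant or repetitive. Of the 212, 12 lay under 2 kb from their bait, 73 were 500 bp or longer, and 99 were less than 25% masked. A fragment of 2102 bp at 1.94 kb upstream of Nanog, 56.2% masked, had no read. The same held for one of 609 bp, with no masked base, at 1.43 kb downstream of Sox2. Other baits reached 26 of the unread fragments at some distance, 23 of them in the overlapping windows of the Ciita baits, which held all 20 with 10 or more such reads. In the windows of the other baits, 3 unread fragments had 1 read each from another bait.

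Length was loosely related to being read. Reads were found on 38.0% of the 50 fragments of up to 150 bp (Wilson interval 25.9 to 51.8), on 56.6% of the 143 above that and up to 300 bp (48.5 to 64.5), on 54.4% of the 149 up to 600 bp (46.4 to 62.2) and on 61.9% of the 134 longer ones (53.5 to 69.7). The intervals of the shortest and the longest class did not overlap, while the middle classes lay close together. These intervals treat each fragment as independent, although fragments share baits and libraries and some Ciita fragments count for several baits. The comparison is therefore a description and not a test. Across fragments, Spearman's rho of reads with length was 0.07 over all 476 and -0.01 over the 264 with reads, given as descriptions, since the fragments share baits and libraries. A fragment of 105 bp led its window at Dppa5a with 99 reads, while one of 2308 bp at Klf4 held 56.

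Masked sequence and position in the gene were loosely related to the share read. Of the 237 fragments less than 25% masked, 58.2% had reads (51.9 to 64.3), and of the 48 masked at 75% or more, 39.6% (27.0 to 53.7). Exonic fragments had reads in 69.5% of 59 cases (56.9 to 79.7) and intronic ones in 57.6% of 203 (50.8 to 64.2). Intergenic ones had them in 49.5% of 214 (42.9 to 56.2). Intervals overlapped between the masked groups, between exon and intron, and between intron and intergenic. Ciita fragments counted once for each bait window that held them. Of the 10 fragments that held an annotated start site, 9 were read; 6 of the 10 were Ciita baits in each other's windows. No fragment with reads held a start site of a protein-coding gene other than the baited one. A gamma-activated site, the letters TTCNNNGAA (the same on both strands) that STAT dimers recognise, was present in 58 of the 476 fragments (12.2%), and fragments with it had reads in 55.2% of cases against 55.5% without it.

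Ciita had 3 baits within 9.59 kb on chromosome 16, so their windows overlapped and the same fragments could be read from several start sites. Bait Ciita_1 spanned 10479663 to 10480580, Ciita_2 10486858 to 10489086 and Ciita_3 10489551 to 10489878, and each held annotated start sites of the gene. They collected 1578, 3291 and 4290 reads under 10 kb, on 18, 28 and 26 fragments. Ciita_3 had the most deeply read window, with 17 fragments of 100 or more reads and a median of 172 reads per fragment, against 38 at Ciita_1 and 71 at Ciita_2.

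The baits of Ciita met each other unequally. Ciita_2 and Ciita_3, 1.74 kb apart, shared 33, 30, 170 and 18 reads in the control-named libraries and 17, 25, 33 and 32 in the IFNγ-named ones. One, control-named library 3, stood far above the other 7, which lay between 17 and 33. Ciita_1 and Ciita_2, 7.85 kb apart, shared 5, 6, 1 and 1 reads and 4, 2, 4 and 4. Ciita_1 and Ciita_3, 9.59 kb apart, shared 2, 3, 2 and 1 and 3, 1, 1 and 3, so the first start site was joined to either of the others by at most 6 reads in any library. Each of these pairs is listed once from each bait with the same counts; with each counted once, 20338 reads remained under 10 kb.

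The fragment beside bait Ciita_1, printed above, was by contrast the most read of the Ciita_2 window at 7.27 kb. It had 111, 106, 25 and 22 reads from Ciita_2 in the control-named libraries and 30, 80, 18 and 25 in the IFNγ-named ones. From Ciita_3, 9.02 kb away, it had 54, 32, 16 and 12 and 99, 24, 22 and 18. The bait itself, which borders this fragment, had 27 and 16 reads in all from these baits, against 417 and 277 for its 234 bp neighbour. The fragment of 357 bp on the other side of bait Ciita_1 had 54 reads from Ciita_2 and lay outside the Ciita_3 window. No such contrast was seen at bait Ciita_3, which itself had 358 reads from Ciita_2. The fragments of 170 and 129 bp that border Ciita_3 had 114 and 408. Those 408 were 181, 33, 80 and 21 in the control-named and 12, 13, 50 and 18 in the IFNγ-named libraries.

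Some fragments shared by the windows were read from 1 bait and not from another. Of 32 fragments open to both Ciita_2 and Ciita_3, 17 were read by both, 5 by each alone and 5 by neither, and Spearman's rho of their reads was 0.33. Ciita_1 and Ciita_2 shared 17 fragments (rho 0.02). Of these, 9 were read by both, 1 by Ciita_1 alone, 5 by Ciita_2 alone and 2 by neither, and 1 had 100 or more reads from both. Over the 15 fragments open to Ciita_1 and Ciita_3, 4 were read by both, 3 by Ciita_1 alone, 5 by Ciita_3 alone and 3 by neither (rho 0.02). These counts and correlations are descriptions over fragments of the same libraries. Of all fragments that could be listed, 54.5% had reads at Ciita_1, 73.7% at Ciita_2 and 70.3% at Ciita_3. Whether the counts read by 1 bait alone differ from what such shares give was not tested.

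Adjacent intronic fragments of Ciita showed the contrast most plainly. A fragment of 1206 bp (chr16:10481127-10482332) had 28, 104, 19 and 14 control-named and 17, 18, 18 and 63 IFNγ-named reads from Ciita_1, and 0 in all 8 libraries from Ciita_2 at 6.24 kb and from Ciita_3 at 7.99 kb. Its neighbour of 280 bp (chr16:10482333-10482612) was the reverse, with 0 reads from Ciita_1 at 2.35 kb and 203 from Ciita_3 at 7.24 kb. The next fragment of 635 bp (chr16:10482613-10483247) led the Ciita_1 window with 23, 88, 28 and 113 and 28, 32, 32 and 41 reads, and had 2 reads from Ciita_2 and 0 from Ciita_3. The printed fragment read by Ciita_2 alone (chr16:10483638-10483886) had 20, 105, 20 and 17 and 17, 12, 13 and 19 reads from Ciita_2 and none from the other two baits. Between the fragment of 635 bp and the printed one lay a fragment of 390 bp (chr16:10483248-10483637) that all 3 baits read, with 133, 72 and 242 reads, and the fragment after the printed one (chr16:10483887-10484638) had 106, 123 and 41. Fragments read from 1 bait thus lay among others read from all.

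**Figure D1:**
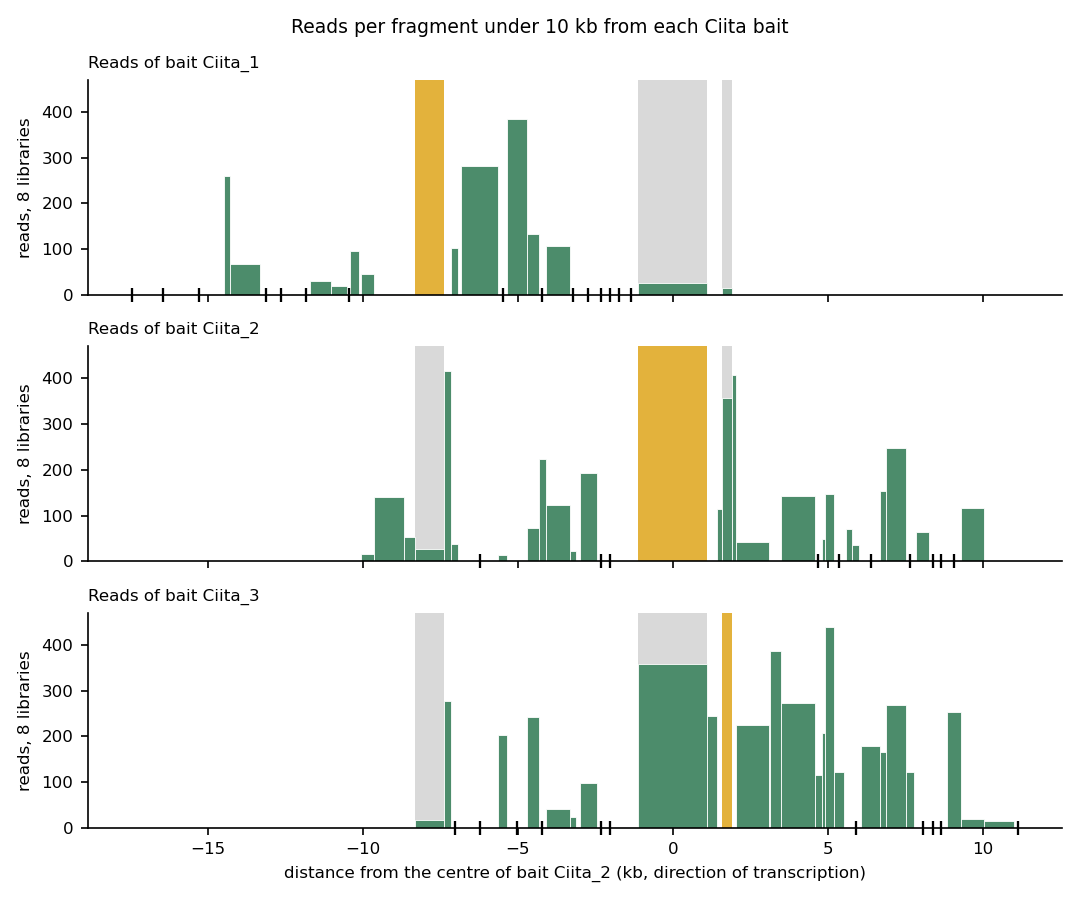
Reads per fragment summed over 8 libraries (vertical axis) against position relative to the centre of bait Ciita_2 in kb (horizontal axis), for each Ciita bait. Bars span the fragments, black ticks mark fragments that could be listed and had no read, the yellow band is the bait of the panel and grey bands are the other Ciita baits. Tall bars in a panel sometimes face ticks in another, as at the fragments with 281 and 385 reads from Ciita_1 and 0 from Ciita_3.

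The window of Ciita_3 reached furthest into the gene body. As a further case of a fragment read from 1 bait, chosen for that after its values were seen, an exonic fragment 1.58 kb downstream (chr16:10491108-10491474) had 41, 53, 29 and 23 control-named and 116, 35, 51 and 38 IFNγ-named reads from Ciita_3, and 1 read in all from Ciita_2. Downstream of Ciita_3 the libraries held a median of 34.3 reads per kb and upstream 18.0.

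Stat3 had the profile least like the others. Its bait lay on chromosome 11 from 100938874 to 100939386, and its reads stood away from the bait: 10.5 reads per kb at 1 to 3 kb against 56.7 at 5 to 10 kb, with the nearer step lower in 8 of 8 libraries. The only fragment of 40 or more reads under 4 kb was the printed one, in a Stat3 intron at 3.56 kb downstream, which had 19, 54, 16 and 64 control-named and 12, 19, 12 and 12 IFNγ-named reads. Control-named libraries 2 and 4 were high, and the groups overlapped between 16 and 19. Its log2 difference was -1.37 (SE 0.626; edgeR adjusted p = 0.282). Intronic fragments at 7.51 kb (chr11:100931039-100932197) and 6.49 kb (chr11:100932354-100932935) had 200 and 167 reads. At the latter, control-named library 3 held 79 of them and the other 7 libraries 6 to 19.

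Lifr, whose product passes its signal to STAT3, was read more densely close to its bait, with 116 reads per kb at 1 to 3 kb and 40.2 at 5 to 10 kb. Its leading fragment (chr15:7131043-7132012), in an intron 1.92 kb downstream, had 12, 38, 11 and 18 control-named and 9, 46, 9 and 13 IFNγ-named reads, with library 2 high in both tables. Of the 16 fragments with reads, all lay within the annotated gene, on both sides of the bait. Upstream, 4 of 12 fragments had reads, and downstream 12 of 19.

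Among the pluripotency genes, Esrrb was read most deeply, with 2167 reads on 18 fragments, all inside the gene. Esrrb encodes an orphan nuclear receptor. Its leading fragment (chr12:86413255-86413741) lay 7.60 kb upstream and had 60, 108, 24 and 18 and 15, 16, 28 and 111 reads. Its density rose away from the bait, from 73.6 reads per kb at 1 to 3 kb to 132.7 at 5 to 10 kb, and the nearer step was higher in 1 of 8 libraries. The Esrrb bait is 3640 bp long, and its nearest listed fragment lay 2.49 kb from the bait's middle, further than at any other bait.

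The Krüppel-like factor genes held their reads near the bait, as several other baits did. At Klf4, which is also expressed in differentiated gut epithelium, density fell 13.4-fold, from 134.6 to 10.04 reads per kb, between these steps. The leading Klf4 fragment (chr4:55529602-55529937), in an exon 1.89 kb downstream, had 21, 21, 15 and 15 and 37, 40, 30 and 14 reads, with 20.7% in the top library. At Klf2 the fall was 4.86-fold, and an exonic fragment (chr8:72320267-72321172) at 2.31 kb downstream had 35, 26, 27 and 117 and 64, 45, 32 and 34 reads. Both falls were seen in 8 of 8 libraries. So were those at Ciita_1 (5.01-fold), Nanog (3.75-fold), Phc1 (3.70-fold), Lifr (2.89-fold) and Dppa5a (2.10-fold).

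Nanog and Phc1, neighbours on chromosome 6, were led by intronic fragments downstream. The Nanog fragment (chr6:122710187-122710507) at 2.82 kb had 58, 19, 19 and 16 and 12, 42, 8 and 17 reads. The printed Phc1 fragment at 4.32 kb had 11, 18, 8 and 9 and 6, 24, 8 and 37. Phc1 collected 844 reads under 10 kb and Nanog 859. In both windows the IFNγ-named and control-named libraries overlapped.

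At Sall4, a zinc finger gene, 26 fragments were read, and the leading one (chr2:168765742-168766027), in an intron at 0.935 kb and 71.3% G or C, had 24, 48, 21 and 13 and 13, 19, 16 and 22 reads. Sox2, an intronless gene, was led by an intergenic fragment (chr3:34653715-34655366) at 5.04 kb with 19, 14, 16 and 77 and 13, 8, 13 and 16 reads, of which control-named library 4 held 43.75%. Dppa5a had no fragment of 100 reads, and its leader (chr9:78363633-78363737) had 10, 8, 23 and 11 and 7, 20, 11 and 9. Tfcp2l1 was the most thinly read, with 553 reads, of which an intergenic fragment (chr1:118623406-118624410) at 4.70 kb upstream held 30.9% as 7, 35, 31 and 12 and 15, 18, 43 and 10.

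**Figure D2:**
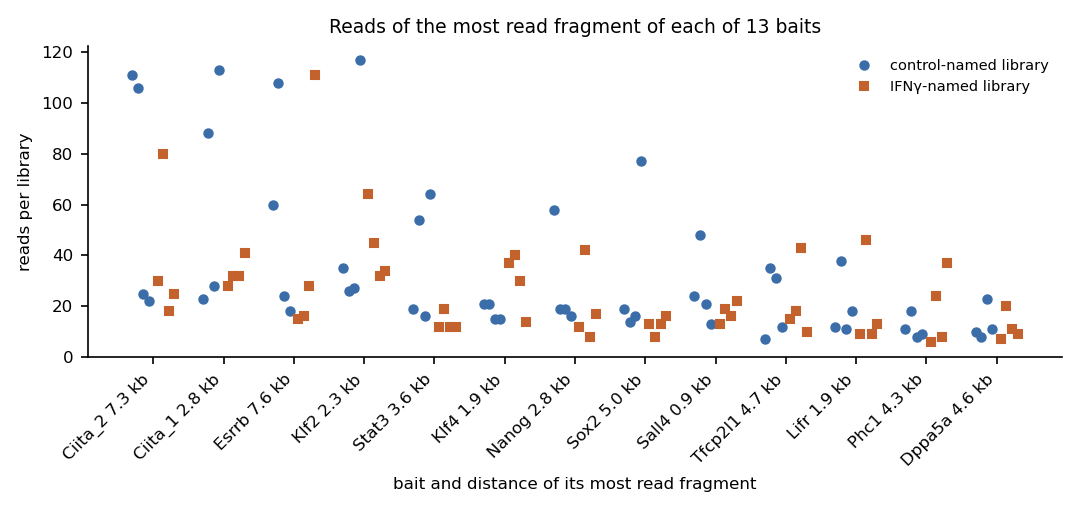
Reads per library (vertical axis) of the most read fragment of 13 baits, with its distance (horizontal axis). Circles are control-named and squares IFNγ-named libraries; the tables overlap at each fragment, and single libraries of these 13 fragments reach up to 117 reads, where most lie under 50.

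Read density fell with distance over the 14 baits together. It was 164 reads per kb of fragments that could be listed under 1 kb and 163 at 1 to 2 kb, then 118 at 2 to 3 kb, 94.3 at 3 to 5 kb, 77.7 at 5 to 7.5 kb and 48.0 at 7.5 to 10 kb. The share of fragments with reads fell from 81.8% (9 of 11) to 44.5% (65 of 146) and 47.3% (62 of 131). The log2 ratio of density at 1 to 3 kb over 5 to 10 kb was 1.13 ± 0.35 for control-named and 1.20 ± 0.15 for IFNγ-named libraries (SD, n = 4 each), a difference of 0.07 (two-sided exact permutation p = 0.83, where 0.0286 is the smallest possible). All 8 libraries had the higher density near the bait, and the lowest ratio, 0.61, was that of control-named library 2. Over the 8 libraries it came to 2.24-fold.

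That ratio joins how many fragments were read with how deeply they were. With the length of fragments with reads alone as denominator the log2 ratio was 0.47 in place of 1.17, a smaller fall per read fragment. Distance was also the property most related to reads within baits, with a median Spearman's rho of -0.31 over the 14 baits and 1 bait above 0. Of the 14 baits, 11 had more reads per kb at 1 to 3 kb, and Stat3, Esrrb and Tfcp2l1 (0.988-fold, higher near the bait in 5 of 8 libraries) did not.

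**Figure D3:**
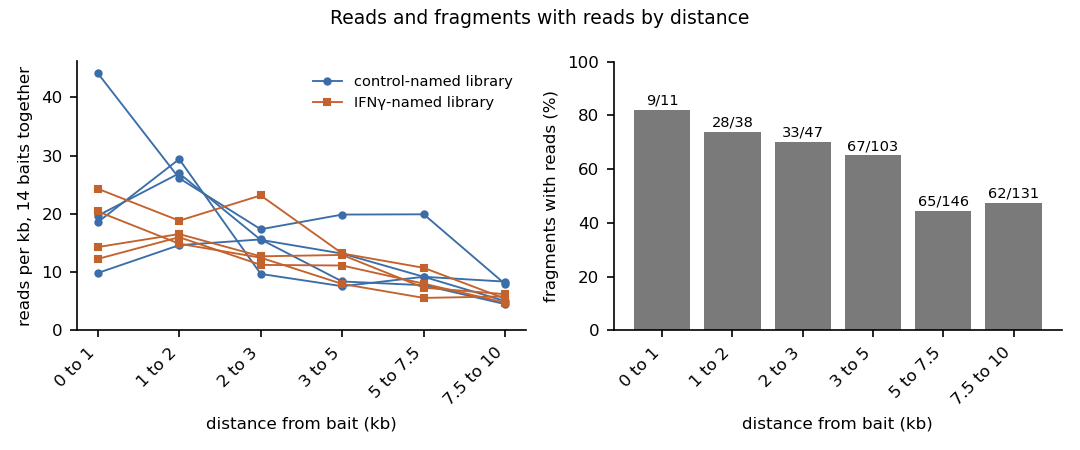
Left, reads per kb of fragments that could be listed, 14 baits together, in each library (circles control-named, squares IFNγ-named) by distance from the bait in kb. Right, the share of those fragments with reads, with counts above the bars, which falls from 81.8% to under 50%.

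**Figure D4:**
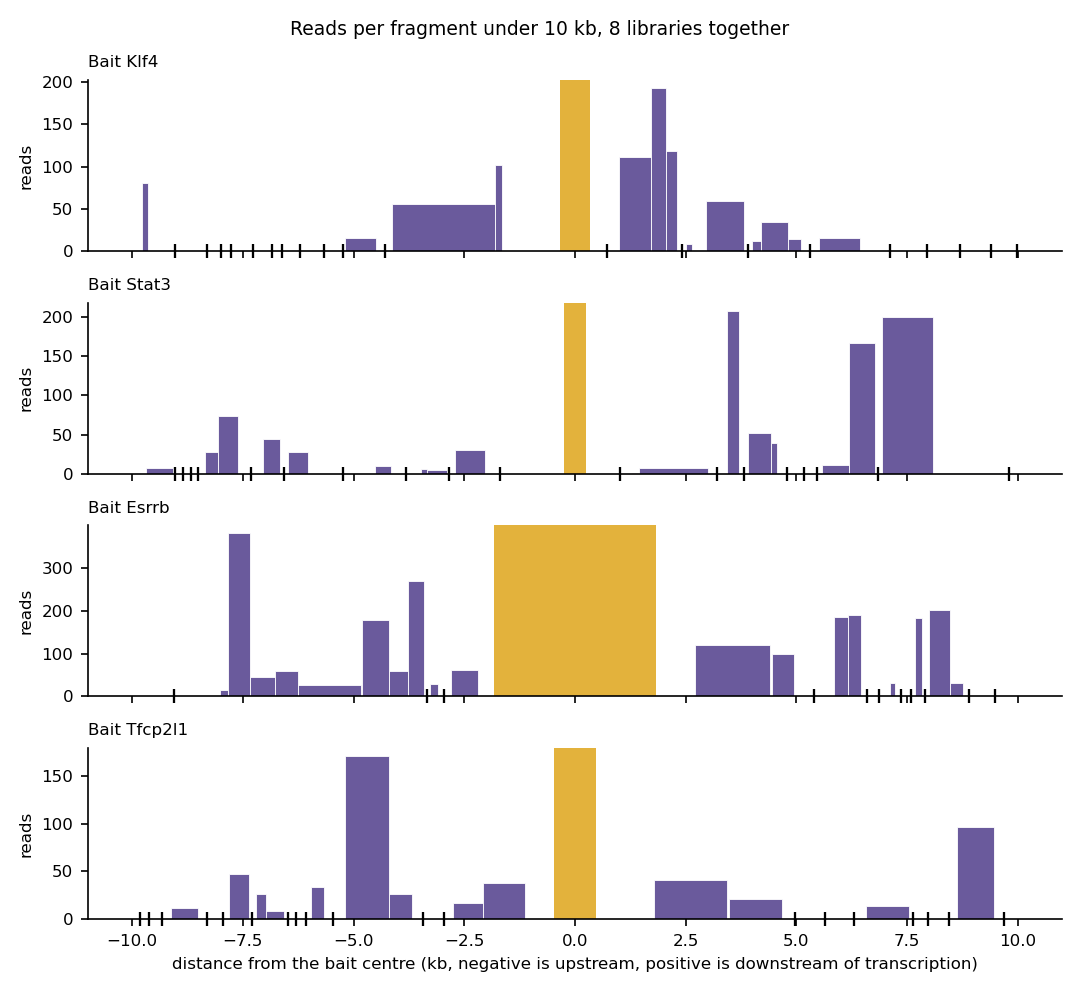
Reads per fragment summed over 8 libraries (vertical axis) against distance from the bait centre in kb along the direction of transcription (horizontal axis). The yellow band is the bait and black ticks are unread fragments that could be listed. Klf4 reads lie near the bait, while those of Stat3 and Esrrb stand further out. Tfcp2l1 has a similar density at 1 to 3 kb (26.0 reads per kb) and at 5 to 10 kb (26.3).

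The authors' own background model rises toward the bait more steeply than the reads did. The median deposited merged value under 1 kb was 0.00439 of the modelled background for control-named and 0.00282 for IFNγ-named pairs, and 0.818 and 0.499 at 7.5 to 10 kb. The highest deposited score under 10 kb was 3.72 among control-named pairs, at a Klf2 fragment 9.23 kb away, and 3.99 among IFNγ-named pairs, at a Tfcp2l1 fragment 9.05 kb away. Both pairs sat close to the 10 kb limit, and both scores lay below 5, the score of a called contact in earlier work.

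Fragments downstream of a bait, in the direction of transcription, were read more densely than those upstream at most baits. The sides did not always part the gene from its flank. At Phc1 and Stat3 the upstream side lay 0% and the downstream side 100% in the gene by length. At Lifr both sides lay 100% in it, and at Dppa5a 0% of the upstream and 17.6% of the downstream side did. Counting all 8 libraries, downstream fragments had 105.7 reads per kb (247 fragments, 57.1% with reads) and upstream fragments 66.7 (229 fragments, 53.7%). The mean log2 ratio of downstream to upstream density over libraries, each with 0.5 reads per kb added, lay above 0 at 13 of the 14 baits, 8 of 9 on the plus strand and 5 of 5 on the minus strand. By an exact sign-flip test over the 8 libraries, two-sided and adjusted over 14 baits by Benjamini-Hochberg, 4 baits passed an adjusted p of 0.05 with downstream higher and 1 with upstream higher, 35.7% of baits. The libraries share the same fragments, so this test covers the spread between libraries only.

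Phc1 had the highest ratio by this measure; within 5 kb those of Ciita_1 (2.11) and Stat3 (1.91) were above its 1.56. Its upstream side held 0.967 reads per kb in the lowest library, 2.18 in the median and 4.71 in the highest, and its downstream side 6.25, 10.3 and 19.7, so the sides did not overlap. The log2 ratio was 2.01 ± 0.74 (SD, n = 8; exact sign-flip test, adjusted p = 0.0365), with downstream higher in 8 of 8 libraries. Lifr followed with 1.5 ± 0.45 (n = 8; exact sign-flip adjusted p = 0.0365; 8 of 8), from an upstream median of 2.48 and a downstream median of 8.40 reads per kb. At Stat3 the ratio was 1.31 ± 0.76 (n = 8; exact sign-flip adjusted p = 0.0438; 7 of 8) and at Dppa5a 0.43 ± 0.40 (n = 8; exact adjusted p = 0.0365; 8 of 8). The Dppa5a ratio was 0.03 without its most read fragment, of 105 bp, and -0.13 with fragments of 150 bp and over.

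Tfcp2l1, a factor of the naive pluripotent state, went the other way. Its upstream side held a median of 4.64 reads per kb and its downstream side 1.75, with a log2 ratio of -0.96 ± 0.78 (n = 8; exact sign-flip adjusted p = 0.0438) and upstream higher in 7 of 8 libraries. The remaining 9 baits did not pass. Nanog had a ratio of 1.19 (exact adjusted p = 0.0547) and downstream was higher in 7 of 8 libraries. Ciita_3 had 0.90, Klf4 0.81, Ciita_1 0.77, Sall4 0.74, Ciita_2 0.56, Klf2 0.32, Sox2 0.16 and Esrrb 0.06. Sox2 had the widest spread, from -1.84 to 1.76 between libraries, with upstream higher in 5 of 8.

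The size of the imbalance depended on the denominator and, at some baits, on 1 fragment. With the length of read fragments alone as denominator 0 of 14 baits passed (smallest exact adjusted p = 0.109), and the ratio was 0.62 at Phc1, 0.25 at Lifr, 0.77 at Stat3 and -1.01 at Tfcp2l1. Without the most read fragment of each bait 0 passed (smallest exact adjusted p = 0.0547); Phc1 and Lifr were then at 1.77 and 1.27, Stat3 at 0.82 and Tfcp2l1 at -0.31. Leaving out single libraries gave 0 calls in 7 of 8 cases and 6 without IFNγ-named library 2, but with 7 libraries the smallest p is 0.0156 and 5 baits would have to reach it, so these counts say little. The ratios themselves ran from 1.84 to 2.18 at Phc1, 1.39 to 1.62 at Lifr, 1.22 to 1.53 at Stat3 and -1.17 to -0.79 at Tfcp2l1 over the 8 cases. The limit of 5 kb gave 9 baits downstream and 2, Esrrb and Tfcp2l1, upstream.

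Beyond 10 kb, baits passed in both directions. By reads in place of density, under 10 kb 12 of 14 baits had a mean above 0 and 5 passed downstream and 1 upstream (42.9%). At 10 to 100 kb 7 of 14 lay above 0, and 4 passed downstream and 3 upstream (50%), and at 100 kb to 1 Mb 7 of 14 did, with 3 and 5 (57.1%). The difference between the distance classes was not tested.

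**Figure D5:**
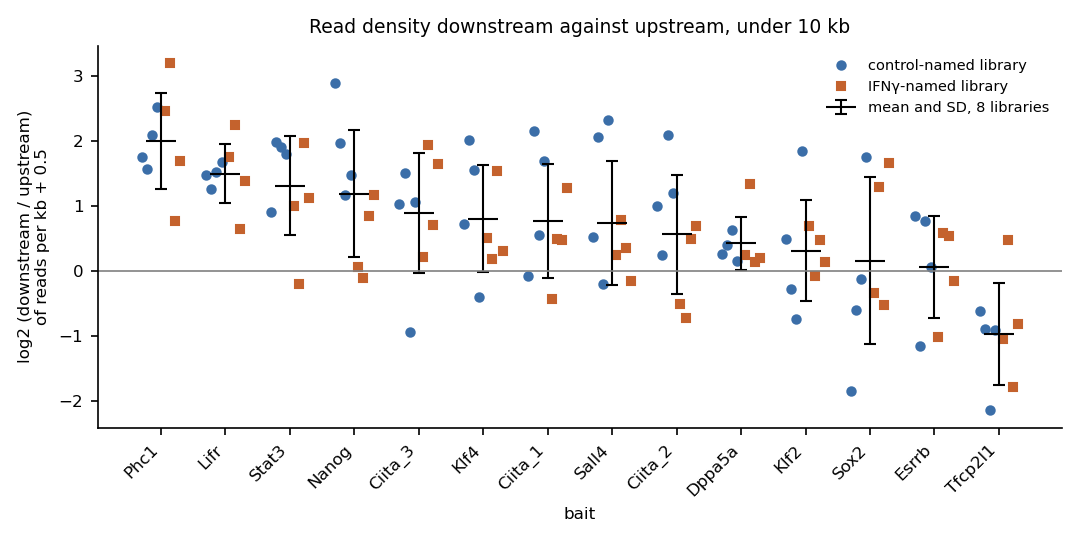
Log2 ratio of downstream to upstream reads per kb (0.5 added to each) under 10 kb, for each bait (horizontal axis) and library (circles control-named, squares IFNγ-named). Black marks are the mean and SD of 8 libraries; the mean lies above 0 at every bait but Tfcp2l1.

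Reads of a fragment were often concentrated in 1 library. Of the 192 pairs under 10 kb with 20 or more reads, 188 were found in all 8 libraries, and in 65 of the 192 a single library held over 50%. The median share of the top library was 40.3%. Control-named library 2 was the top library of 55 pairs and library 1 of 35, against 13 to 26 for each of the others. These counts are not scaled for depth, and the same libraries had the most reads under 10 kb, 4154 and 2942. Within a table, 1 library held over 50% in 51.4% of the control-named and 44.4% of the IFNγ-named pairs with 20 or more reads, against 53.7% to 61.9% and 54.5% to 59.7% in the other distance classes. The part of this in the results above was not tested, other than by leaving out libraries and such pairs. Without the pairs with over 50% in 1 library, 7 baits passed with downstream and 1 with upstream higher. That filter can lower the spread between libraries, which is what the sign-flip test measures, so more calls can follow from the filter alone.

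In 27 of the 192 pairs with 20 or more reads, at 13 baits, no library but the top one had more than 2 reads. Such pairs were not counted in the other distance classes. Bait Ciita_3 had 2, 2, 1 and 2 control-named and 1, 109, 2 and 2 IFNγ-named reads on an intronic fragment at 3.63 kb (chr16:10493177-10493503). Klf2 had 1 read in each of 7 libraries and 60 in IFNγ-named library 2, on a fragment 1.31 kb upstream (chr8:72316889-72317322). Phc1 had 54 in control-named library 4 and 1 or 2 elsewhere, at 8.66 kb downstream. Ciita_1 had 31 in control-named library 1 and 0 in the other 7, at 3.53 kb upstream.

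Other pairs were spread evenly. In 22 of the 143 pairs with 40 or more reads, the top library held under 25%. The most even was an intergenic fragment 2.85 kb upstream of Dppa5a (chr9:78371089-78371263), 94.9% of it repeat-masked, with 8, 9, 10 and 9 and 8, 8, 9 and 11 reads. A fragment 9.67 kb downstream of Ciita_2 had 19, 17, 12 and 11 and 9, 12, 17 and 19, and one 1.49 kb downstream, between Ciita_2 and Ciita_3, had 19, 12, 12 and 12 and 19, 14, 12 and 14.

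The question of the design, whether contacts differed with IFNγ, was put to these pairs as a comparison of the tables. None passed: 0 of the 225 with 10 or more reads, and 0 of all 3673 pairs tested (0%), had an adjusted p under 0.05 by edgeR's quasi-likelihood test. By the unadjusted p, 36 of the 225 (16%) lay under 0.05, against 16.7% of all pairs, a share close to that background. Both shares exceed the 0.05 that would hold without any difference, and the unadjusted count depended on the method. DESeq2 also called 0, with 18 under an unadjusted p of 0.05. The smallest edgeR adjusted p was 0.282, and the biological coefficient of variation was 0.713 under 10 kb and 0.775 to 0.815 in the other distance classes.

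Sums over each bait's near fragments gave 0 calls of 14, and 0 of all 70 sums of bait and distance class (0%), with 0 of the 14 and 2 of the 70 (2.86%) under an unadjusted edgeR p of 0.05. DESeq2 called 1 of the 70 and 0 of the 14. Ciita_1 had 166, 518, 111 and 194 reads in the control-named and 170, 117, 119 and 183 in the IFNγ-named libraries, a log2 difference of -0.41 (SE 0.366; edgeR adjusted p = 0.884). Control-named library 2 was high and the other 7 lay between 111 and 194. Ciita_2 gave 534, 741, 400 and 303 and 274, 406, 383 and 250, a log2 difference of -0.30 (SE 0.232; edgeR adjusted p = 0.884). Stat3 gave 151, 124, 149 and 120 and 70, 121, 117 and 68 (-0.31, SE 0.275; edgeR adjusted p = 0.884). At Stat3 the lowest control-named library and the highest IFNγ-named one met at 120 and 121.

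As a share of the bait's own reads, the near fragments took most at Ciita_3 in both tables. Ciita_3 had 14.7% ± 5.01 of its reads under 10 kb among control-named and 15.6% ± 3.63 among IFNγ-named libraries (SD, n = 4 each), and Ciita_2 13.3% ± 2.89 and 9.96% ± 1.92. Phc1 had the lowest share in the control-named table, 5.08% ± 1.85, and Tfcp2l1 in the IFNγ-named one, 5.71% ± 1.81. The tables overlapped at all 14 baits, and no exact permutation p was under 0.05. The lowest was 0.0571 at Klf4, with 6.03% ± 0.918 and 7.5% ± 1.03 (n = 4 each, two-sided exact permutation test; adjusted p = 0.533). With 14 baits, 8 would have to reach the smallest possible p for an adjusted p of 0.05.

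No difference between tables in the split between sides passed either. At Nanog the upstream share of near reads was 21.5% ± 8.49 over control-named and 42.8% ± 11.48 over IFNγ-named libraries (n = 4 each; exact permutation p = 0.0571, adjusted 0.6). At Ciita_2 it was 31.6% ± 11.2 and 49.98% ± 12.4 (n = 4 each; exact p = 0.0857, adjusted 0.6). At Lifr it was 20.7% ± 2.80 and 20.8% ± 9.41. The libraries of the tables overlapped at each of the 14 baits.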

How the data were processed

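Capture-C reads were analysed as pairs of a bait and another fragment. Reads were aligned with Bowtie2 to mm10, per the submitters' processing notes; versions, duplicate removal and the caller's settings are not stated in the labels or files. Per the file headers, the authors' tables hold counts of reads in 4 columns. The authors deposited a merged value and a contact score per pair, both treated as a score, used within a table only. The authors also deposited a modelled background signal per pair. Pairs were joined by fragment number, and an absent pair was given 0 counts.

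Windows were digested at GATC from the GRCm38 reference, with lower-case letters counted as masked, and annotated with GENCODE vM21. A fragment could be listed if it was longer than 100 bp and not next to its bait, the limits the tables showed. Sides follow the direction of transcription. Pairs with 10 or more reads were compared with edgeR 4.0.16 (quasi-likelihood, TMM, Benjamini-Hochberg adjusted p of 0.05), tested on simulated data, and DESeq2 1.42.0 (R 4.3.3); 357 adjusted p-values of DESeq2 were NA. Shares used exact permutation tests, and sides used exact sign flips over libraries (scipy 1.17.1, Python 3.11.15). Depth was 23037 to 37290 reads per library.

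All baited genes are named, with each bait's most read fragment (that of Ciita_3 is not reported here), fragments that are baits, those with another gene's start site, and pairs past the threshold. Members, lists and tests were chosen with earlier results of these data known. Alternatives covered count filters, normalization, distance limits, denominators, short fragments, bait pairs, the most read fragments and single libraries; 4 alternatives for the sides were added after seeing the data.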

Additional observations from a re-analysis of the deposited data

Results flagged for a closer look

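In 56 groups of 4 libraries (the share of a bait's reads under 10 kb and the upstream share of those reads, by bait and table), 3 had a library that stood apart from the rest. By chance about 1 in 20 such groups would, here 2.8. All 3 were upstream shares. At Ciita_3, 67.2% of the reads under 10 kb were upstream in control-named library 3, against 27.0% to 33.8% in the others; that library also held 170 of the 358 reads that join Ciita_3 to Ciita_2. At Dppa5a the upstream share was 24.5% in IFNγ-named library 2, against 42.5% to 44.9%. At Stat3 it was 31.1% in control-named library 1, against 16.1% to 18.3%.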

How the results depend on the processing

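Of 341 alternatives run, 231 kept their direction or count and their side of the threshold. Another 20 turned direction, none of them at Phc1, Lifr, Stat3 or Tfcp2l1. The 231 include runs that could not have changed. With a library left out, the exact permutation tests of shares between tables cannot reach a p of 0.05, so their lack of calls says nothing. With pairs of 1 or more reads tested, edgeR called 8 pairs under 10 kb and 168 of 30435 in all; in each of the 8, 1 library held 84.3% or more of the reads. For the sides, 5 baits passed in the tests as reported, 11 at a limit of 5 kb, 8 without pairs with over 50% in 1 library, 0 with the length of listed fragments, 0 without the most read fragment, 0 with either table alone (where 4 libraries cannot pass), and 0 to 6 when single libraries were left out. Downstream was higher on average at 10 baits, the lowest count, when the steps of 1 to 5 kb and 5 to 10 kb weighed equally. The log2 ratio turned to upstream within 5 kb at Esrrb (-1.36) and Sox2 (-1.24), with fragments of 150 bp and over at Dppa5a (-0.13), and without the most read fragment at Klf2 (-0.32) and Sox2 (-0.35). With steps weighed equally it turned at Ciita_1 (-0.10), Esrrb (-0.22) and Sox2 (-0.31), without pairs with over 50% in 1 library at Esrrb (-0.39) and Sox2 (-0.20), with the control-named table alone at Sox2 (-0.20), and with the IFNγ-named table alone at Ciita_2 (-0.0069) and Esrrb (-0.0054). With single libraries left out it ran from -0.049 to 0.24 at Esrrb and from -0.065 to 0.45 at Sox2, and the difference between tables in the ratio by distance from -0.11 to 0.15. The log2 ratio of density by distance moved to 0.47 with the length of listed fragments and to 0.86 with the gap between fragment edges. With a minimum of 10 reads, 47.3% of the fragments counted as read.

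No paired analysis was possible because the count columns name no mouse or passage. Fragments of 100 bp or shorter and those next to a bait were not analysed here, so nothing is known of the nearest contacts. At 20739 reads over 264 pairs, most pairs had under 100 reads, and single libraries decided many values.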
